A study of Arabidopsis thaliana with 51 samples.

Results

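Transcripts of 4 Arabidopsis thaliana genes of seed maturation were followed across 17 organ groups: the oleosin gene OLEO3 (AT5G51210), the late embryogenesis abundant genes AT3G15670 and AtLEA4-1 (AT1G32560), and AT1G04560. Their probes are those that the annotation table gives by those names, 1 per gene, and they are 4 of the 1783 genes that could be named. The choice of these genes was made with earlier results of these data known, so counts of calls among them are not those of an unselected set. The study hybridised total RNA to 51 two-colour arrays. On 45 arrays an organ's RNA shared the slide with RNA of cultured cells, plant cells grown in culture, which served as the common comparator. These arrays cover 1DBP pistils (2 arrays), 1DPP pistils (4), 3DPP siliques (3), 8DPP siliques (3), germinating seeds (3), light and dark cotyledons (2 and 3), light and dark hypocotyls (2 each), light and dark roots (2 each), rosette leaves (3), cauline leaves (3), stems (3), sepals (2), petals (3) and stamens (3). On the 6 other arrays a seedling organ in light was hybridised directly with its dark counterpart, with 2 arrays each for cotyledons, hypocotyls and roots. The stage labels 1DBP, 1DPP, 3DPP and 8DPP are kept as written, since their meaning is not stated in the labels. No ecotype, genotype, seedling age or light regime is given there for any group.

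Seed oil is stored in oil bodies, and oleosins are the small proteins that coat them and keep them apart. Late embryogenesis abundant (LEA) proteins are mostly hydrophilic proteins that accumulate as an embryo prepares to dry out, and many are also made in vegetative tissue under drought, cold or the hormone abscisic acid. AT1G04560 belongs to the AWPM-19-like family of membrane proteins, whose first member was found in wheat cells treated with abscisic acid. As an Arabidopsis seed germinates, stored oil is broken down to feed the seedling, and a seedling kept in the dark grows a long hypocotyl and unopened cotyledons.

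Values below are log2 ratios from which the median of the array was subtracted, so a value of 1 is a doubling relative to the middle probe of that array. They can be compared between organs for a gene, not between genes. Reading the ratios as organ over cultured cells and as light over dark is likely, not known: it is taken from the photosynthesis genes, higher in light cotyledons, and from both light root arrays, whose organ RNA lay in different channels and which correlated at 0.75 over 25305 probes. Dye and organ cannot be told apart elsewhere, because rosette leaf, cauline leaf and stem RNA lay in channel 1 and the RNA of the other organs in channel 2. Array values numbered between 7399, on an 8DPP silique array, and 26609. Values were present on 49 of 51 arrays for AT3G15670, 47 for AtLEA4-1, 46 for OLEO3 and 41 for AT1G04560, which had none in germinating seeds. The labels do not say that arrays of a group came from separate plants, so p-values may measure technical spread alone. In whole organs, fewer cells of a type and less RNA per cell cannot be told apart.

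A gene was called when its adjusted p was under 0.05 and its change at least 2-fold. In dark hypocotyls all 4 genes were called higher than in cultured cells, 1 of them, AtLEA4-1, not without replicate 1. Group means of all 4 genes were also above 0, the middle probe, in dark roots, light cotyledons and stamens, though AtLEA4-1 had 1 value in dark roots. Some of these means were close to 0 and not called: AT3G15670 at 0.23 in light cotyledons and 0.20 in stamens, and AtLEA4-1 at 0.13 in stamens. Over the 17 groups, 61 comparisons of a gene with cultured cells could be tested, 17 were called higher and 0 lower. The share of all probes called higher ran from 13.2% in dark roots to 29.3% in germinating seeds. The share called lower ran from 14.5% in light roots to 29.4% in germinating seeds. The 4 of 4 genes called higher in dark hypocotyls stood beside 19.6% of all probes called higher there. In sepals 3 of 4 were called, beside 22% of all probes, and in dark cotyledons 2 of 4, beside 20.1%. Germinating seeds had 2 of the 3 measured genes called, beside 29.3% of all probes. In dark roots 1 of 3 was called, beside 13.2%. The other calls were 1 of 4 genes each in light cotyledons (17.7% of all probes), stems (22.8%), stamens (23.5%), 1DPP pistils (23%) and 8DPP siliques (18.8%). No gene was called in light roots (18.5% of all probes), rosette leaves (23.6%), cauline leaves (21.9%), petals (22.4%), 3DPP siliques (23.3%) or 1DBP pistils (21.8%). In these 6 groups limma's unadjusted p was under 0.05 for OLEO3 in 1DBP pistils (0.0388) and AtLEA4-1 in rosette leaves (0.0347) only. Other settings did make calls there. OLEO3 was called in 1DBP pistils with arrays left uncentred (1.76, adjusted p = 0.0382) and in 3DPP siliques with replicate number as a block (1.77, adjusted p = 0.013). AtLEA4-1 was called in rosette leaves under scaling to a common spread (1.01, adjusted p = 0.0438). For AT1G04560 in 3DPP siliques, leaving out replicate 2 left 1 value, 3.18. Light hypocotyls, with at most 1 value per gene, were not tested.

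**Figure D1:**
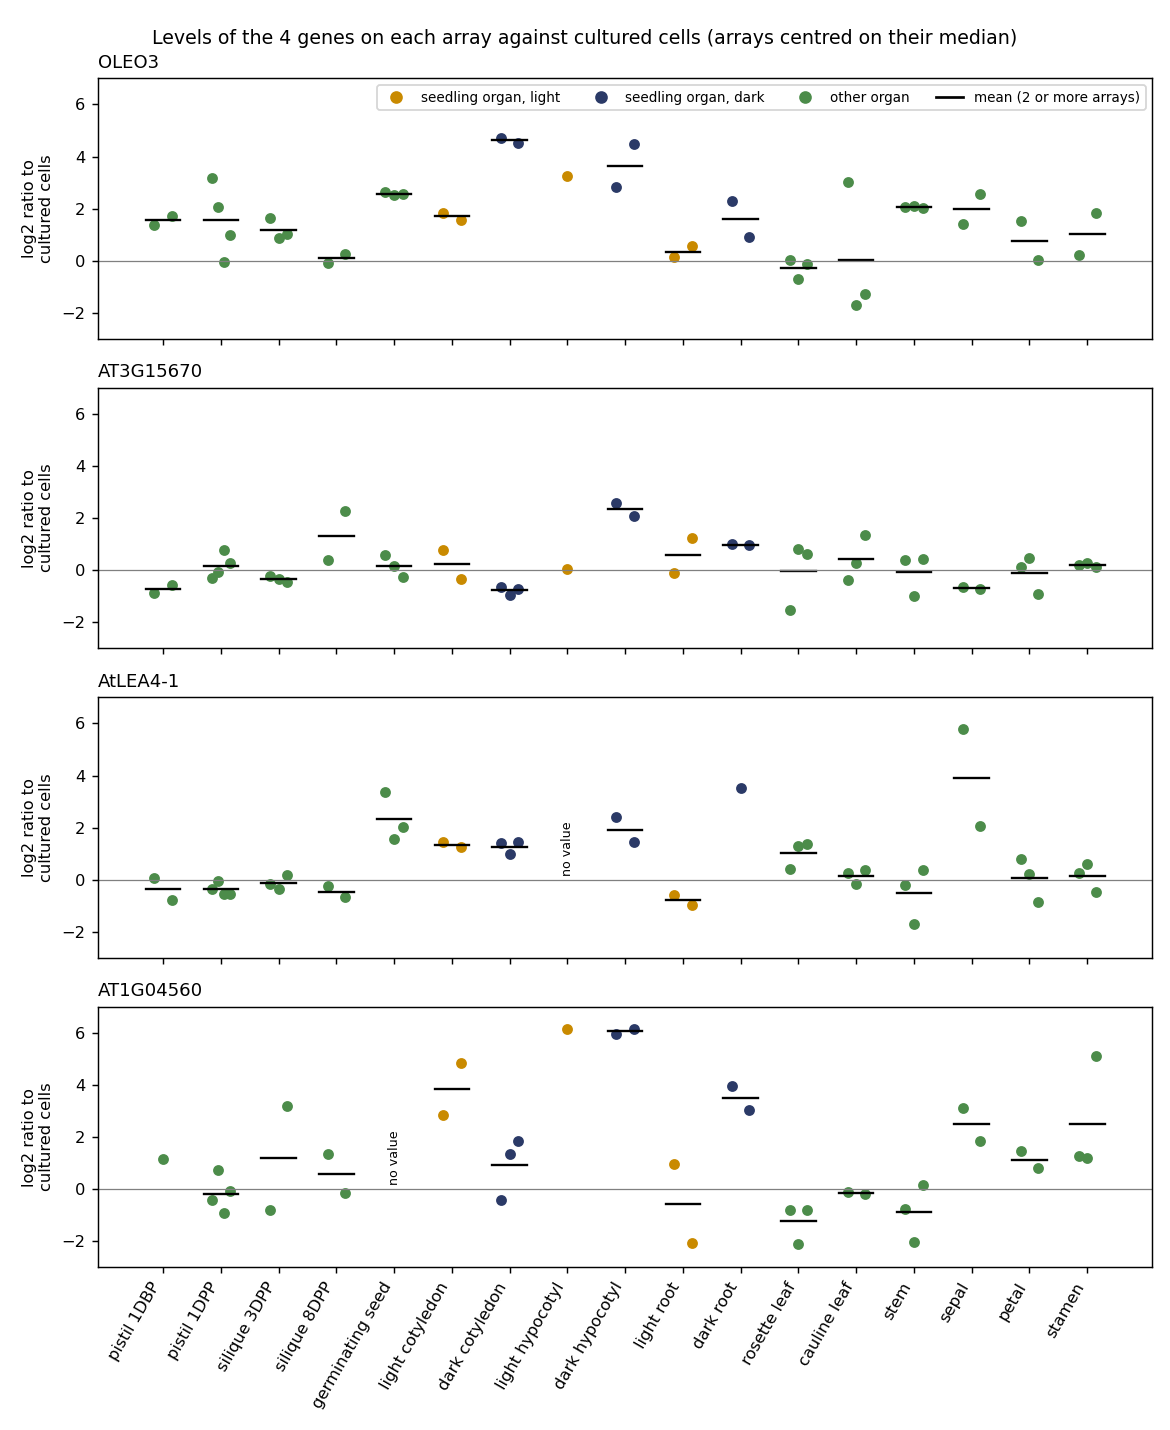
Centred log2 ratio to cultured cells (vertical axis) of each gene on every array of the 17 organ groups (horizontal axis); points are arrays and black lines are means of 2 or more. OLEO3 was highest in dark cotyledons at 4.62, AT3G15670 in dark hypocotyls at 2.34, AtLEA4-1 in sepals at 3.92 and AT1G04560 in light and dark hypocotyls at 6.13 and 6.06.

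OLEO3, the coat protein of seed oil bodies, was highest in dark cotyledons. The 2 dark cotyledon arrays with a value read 4.70 and 4.53, a mean 24.6-fold above cultured cells (4.62 ± 0.71 on the log2 scale, SE; adjusted p = 2.64e-06). Dark hypocotyls read 2.84 and 4.46 (mean 3.65 ± 0.71 SE, adjusted p = 7.96e-05), and the single light hypocotyl value was 3.27. All of these arrays lay above germinating seeds, which read 2.62, 2.54 and 2.58 and hardly differed among themselves (mean 2.58 ± 0.58 SE, adjusted p = 0.000314). Stems were equally tight at 2.07, 2.11 and 2.04 (mean 2.07 ± 0.58 SE, adjusted p = 0.0039). Sepals read 1.42 and 2.57 (adjusted p = 0.0191). The call in sepals was lost without sepal replicate 2 (1.42, adjusted p = 0.291) and when arrays were scaled to a common spread (adjusted p = 0.115).

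Other organs held intermediate to low OLEO3 ratios. The 4 pistil arrays at 1DPP read 3.19, 2.06, -0.04 and 1.00 and so spanned the whole range of the flower arrays (mean 1.55 ± 0.51 SE, adjusted p = 0.0102). That call was lost without replicate 1 (1.01, adjusted p = 0.143) or without replicate 2 (1.38, adjusted p = 0.054). Light cotyledons at 1.84 and 1.58, dark roots at 2.30 and 0.90, and 1DBP pistils at 1.36 and 1.73 were all above cultured cells on every array, with adjusted p of 0.0524, 0.0801 and 0.0786. With arrays left uncentred all of these were called (adjusted p of 0.0175, 0.015 and 0.0382). The 3DPP siliques read 1.65, 0.88 and 1.03, and the 2 measured 8DPP siliques -0.07 and 0.27. The 8DPP siliques were thus near the middle probe of their arrays for this seed gene, with ratios of 0.80 and 1.03 before centring. Petals (1.51 and 0.01), stamens (0.21 and 1.82) and light roots (0.13 and 0.56) overlapped in their ratios, and rosette leaves ranged from -0.71 to 0.02. Cauline leaves disagreed among themselves, at 3.02, -1.70 and -1.28. Without cauline leaf replicate 1 their mean was -1.49 (adjusted p = 0.0258), against 0.02 with it.

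AT3G15670, a LEA gene, had the narrowest span, 3.10 between its highest and lowest group. It was highest in dark hypocotyls, at 2.58 and 2.10 (mean 2.34 ± 0.46 SE, 5.06-fold, adjusted p = 7.6e-05). The 8DPP siliques came next, at 0.39 and 2.26 (mean 1.33 ± 0.46 SE, adjusted p = 0.019). That call rested on replicate 2, without which the value was 0.39 (adjusted p = 0.689). Dark roots were even, at 1.00 and 0.95 (adjusted p = 0.101, and 0.0147 with arrays left uncentred). At the low end, dark cotyledons read -0.64, -0.94 and -0.71, 1DBP pistils -0.88 and -0.56, and sepals -0.66 and -0.74, with all of these arrays below 0 and none of the 3 groups called. Germinating seeds ranged from -0.24 to 0.59 around a mean of 0.18, which was 1.18 and called with arrays left uncentred (adjusted p = 0.0095). The remaining groups had means between -0.34 in 3DPP siliques and 0.57 in light roots.

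AtLEA4-1, a group 4 LEA protein of drying seeds and water-stressed plants, was highest in sepals, where its 2 arrays differed most: 5.79 and 2.04 (mean 3.92 ± 0.57 SE, adjusted p = 5.7e-07). The single dark root value was 3.53. Germinating seeds read 3.38, 1.55 and 2.01 (mean 2.32 ± 0.46 SE, 4.98-fold, adjusted p = 5.85e-05). Each of these arrays lay above every array of the pistils and siliques. Dark hypocotyls read 2.42 and 1.43 (mean 1.93 ± 0.57 SE, adjusted p = 0.00493), and dark cotyledons 1.40, 0.98 and 1.44 (mean 1.28 ± 0.46 SE, adjusted p = 0.022). The dark hypocotyl call was lost without dark hypocotyl replicate 1 (1.43, adjusted p = 0.173). The dark cotyledon call was lost without replicate 1 (adjusted p = 0.0869) or replicate 3 (adjusted p = 0.102). Light cotyledons, at 1.44 and 1.25, lay close to the dark ones, with an adjusted p of 0.0537 against cultured cells, and of 0.0287 with arrays left uncentred. Rosette leaves averaged 1.02 (adjusted p = 0.0661). Light roots were the lowest group, at -0.58 and -0.95, and stems, pistils, siliques, cauline leaves, petals and stamens had means between -0.50 and 0.15.

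AT1G04560, the AWPM-19-like membrane protein gene, spanned the widest range, 7.36 between light hypocotyls and rosette leaves. Dark hypocotyls read 5.96 and 6.17, a mean 66.9-fold above cultured cells (6.06 ± 0.87 SE, adjusted p = 1.62e-06), and the single light hypocotyl value was 6.13. On the dark hypocotyl arrays the gene stood at the 99.6th percentile of all probes. Light cotyledons followed at 2.83 and 4.84 (mean 3.83 ± 0.87 SE, adjusted p = 0.000637) and dark roots at 3.98 and 3.04 (mean 3.51 ± 0.87 SE, adjusted p = 0.0019). Without light cotyledon replicate 2 the adjusted p was 0.081, and without dark root replicate 1 it was 0.076. Sepals read 3.12 and 1.85 (mean 2.49 ± 0.87 SE, adjusted p = 0.0177). This call was lost without sepal replicate 1 (1.85, adjusted p = 0.252) and under scaling to a common spread (adjusted p = 0.0812). Stamens read 1.28, 1.19 and 5.11 (mean 2.52 ± 0.71 SE, adjusted p = 0.00373). The third stamen array carried that call, and without it the mean was 1.23 (adjusted p = 0.182). The 2 measured 3DPP siliques disagreed, at -0.81 and 3.18. Dark cotyledons read between -0.43 and 1.85, and petals, the lone 1DBP pistil value and 8DPP siliques had means between 0.59 and 1.14. Cauline leaves, 1DPP pistils, light roots and stems had means between -0.89 and -0.14, and rosette leaves were the lowest group, at -2.10 to -0.79.

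In the orders above, groups were sorted by their means, so neighbours lie close by construction. The share of all probes whose arrays overlap, or stand apart, between groups was not computed for any comparison. The array ranges of neighbouring groups overlapped for 13 of 16 neighbours in OLEO3, 15 of 16 in AT3G15670, 13 of 15 in AtLEA4-1 and 14 of 15 in AT1G04560, a group with 1 value entering as that value. The clearest step was in AT1G04560, where both dark hypocotyl arrays lay above both light cotyledon arrays by a difference in means of 2.23.

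Along the pistil and silique stages, none of the 4 genes was called. From 1DBP through 1DPP and 3DPP to 8DPP, group means of OLEO3 were 1.55, 1.55, 1.19 and 0.10, and those of AtLEA4-1 were -0.35, -0.37, -0.11 and -0.46. AT3G15670 had -0.72, 0.18, -0.34 and 1.33. For 1DPP against 1DBP pistils 0 of 3 tested genes were called, beside 1.08% of all probes. For 3DPP siliques against 1DPP pistils it was 0 of 4, beside 2.85%, and for 8DPP against 3DPP siliques 0 of 4, beside 15%. By limma's unadjusted p under 0.05 the counts were 0, 0 and 1. AT3G15670 came closest: both 8DPP siliques were above all 3 siliques at 3DPP, by 1.67 ± 0.60 (SE, adjusted p = 0.0527). With arrays left uncentred the difference was 2.35 (adjusted p = 0.00662). Without 8DPP replicate 1, which left 1 value at 8DPP, it was 2.60. For OLEO3 both 8DPP siliques were below all 3DPP siliques, by a difference of -1.09 (95% interval -2.98 to 0.80, adjusted p = 0.459). Against the mean of the 5 flower groups (sepals, petals, stamens and both pistil stages), 1 of 3 tested genes was called in 8DPP siliques, beside 21.4% of all probes. This was AT3G15670, higher by 1.56 ± 0.50 (SE, adjusted p = 0.0184), and 0.62 (adjusted p = 0.551) without 8DPP replicate 2. Of the seed coat and ovule markers fixed for checking the organs, INO and BAN had probes, and their mean ran from 3.60 to 4.24 on 3DPP silique arrays and from 2.84 to 3.58 on 1DPP pistil arrays. In 8DPP siliques INO had no value. BAN, an enzyme of seed coat tannin synthesis, read -0.68 on replicate 1 and 5.46 on replicate 2, the array on which AT3G15670 was also higher. Its part in that difference was not tested.

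Germinating seeds held more OLEO3 and more AtLEA4-1 than 8DPP siliques. The difference was 2.48 ± 0.92 for OLEO3 (SE, 5.58-fold, adjusted p = 0.0287) and 2.77 ± 0.73 for AtLEA4-1 (SE, 6.84-fold, adjusted p = 0.00252). For both genes all 3 germinating seed arrays were above the 2 silique arrays. These were 2 of 3 tested genes, beside 41.9% of all probes called in either direction. The OLEO3 call was lost on leaving out any 1 of the arrays compared (adjusted p from 0.0523 to 0.126) and under scaling to a common spread (1.63, adjusted p = 0.225). AT3G15670 ran lower in germinating seeds than in 8DPP siliques by a difference of -1.15, with overlapping arrays (adjusted p = 0.116). Against the mean of the 5 flower groups only AtLEA4-1 was called in germinating seeds, 1 of 3 genes beside 45.9% of probes. It was higher by 1.64 ± 0.51 (SE, adjusted p = 0.00747), by 1.11 (adjusted p = 0.123) without germinating seed replicate 1, and by 1.09 (adjusted p = 0.0617) under scaling to a common spread.

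Between germinating seeds and dark seedling organs the genes did not move as a group. Against dark cotyledons, 0 of 3 tested genes were called, beside 40.5% of all probes, and 1 had an unadjusted limma p under 0.05 (OLEO3, 0.0353). OLEO3 was lower in every germinating seed than in both dark cotyledon arrays, by a difference of -2.04 ± 0.92 (SE, adjusted p = 0.0738), while AtLEA4-1 and AT3G15670 were higher on every germinating seed array, by 1.04 (adjusted p = 0.202) and 0.94 (adjusted p = 0.159). Against dark hypocotyls, 1 of 3 was called, beside 34% of probes: AT3G15670 was lower in germinating seeds by a difference of -2.16 ± 0.60 (SE, 4.47-fold, adjusted p = 0.00486). Without dark hypocotyl replicate 1 that adjusted p was 0.0668.

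Within the dark seedling, cotyledons held less AT1G04560 and less AT3G15670 than hypocotyls. AT1G04560 was 35.2-fold lower in dark cotyledons than in dark hypocotyls (-5.14 ± 1.12 SE, adjusted p = 0.00209), and AT3G15670 was 8.58-fold lower (-3.10 ± 0.60 SE, adjusted p = 0.000394). Arrays of the 2 organs did not overlap for either gene, and both calls held on leaving out any 1 array and under every other setting that gave a value. These 2 of 4 genes stood beside 15.7% of all probes called in either direction. AtLEA4-1 differed by -0.65 (95% interval -2.14 to 0.84) and OLEO3 by 0.97 (95% interval -1.10 to 3.04). Dark roots lay below dark hypocotyls for OLEO3, AT3G15670 and AT1G04560, by differences of -2.05, -1.36 and -2.55. With adjusted p of 0.244, 0.228 and 0.234, 0 of 3 were called (6.95% of all probes), and 2 had an unadjusted limma p under 0.05. The arrays did not overlap for these genes, but each organ had 2 arrays and the share of all probes so separated was not computed. OLEO3 was higher in dark cotyledons than in dark roots by 3.02 ± 1.01 (SE, adjusted p = 0.0454), 1 of 3 tested genes beside 12.3% of probes. That call was lost without any 1 of the 4 arrays (adjusted p from 0.0588 to 0.33), with arrays left uncentred (adjusted p = 0.0628) and under scaling (adjusted p = 0.104). AT3G15670 differed in the opposite sense, by -1.74 ± 0.60 (SE, adjusted p = 0.0509). Root markers (2 peroxidase genes and an extensin-like gene, 3 of 3 measured) moved with the organ: their mean was 0.90 to 1.5 on dark cotyledon arrays, 5.76 to 6.01 on dark root arrays and 3.67 to 3.96 on dark hypocotyl arrays. Green tissue markers (5 of 5 measured) averaged 4.58 to 4.78 in dark cotyledons and 0.62 to 0.65 in dark hypocotyls. Their part in these differences was not tested.

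Within the flower, AtLEA4-1 was lower in petals than in sepals, and lower in stamens and 1DBP pistils than in the mean of petals and sepals. All of these comparisons share the same sepal arrays, at 5.79 and 2.04. Stamens, with a mean of 0.13, were not below petals, with a mean of 0.05, and stamen and 1DBP pistil arrays overlapped those of petals. Petals, at -0.86 to 0.78, were below sepals by a difference of -3.86 ± 0.73 (SE, 14.6-fold, adjusted p = 0.000709), 1 of 4 genes beside 7.39% of all probes. Without sepal replicate 1 the difference was -1.99 (adjusted p = 0.176). Stamens were lower than the mean of petals and sepals by a difference of -1.85 ± 0.59 (SE, adjusted p = 0.0439), again 1 of 4 genes, beside 7.36%. The call was lost on leaving out any stamen array, petal replicate 1 or 2, or sepal replicate 1 (adjusted p from 0.0673 to 0.432), and under scaling to a common spread (adjusted p = 0.161). Without sepal replicate 1 the difference was -0.92. Pistils at 1DBP were lower than the mean of petals and sepals by a difference of -2.33 ± 0.67 (SE, adjusted p = 0.00654), 1 of 3 tested genes beside 34.1%. It was -1.40 (adjusted p = 0.0707) without sepal replicate 1 and -1.92 (adjusted p = 0.101) without pistil replicate 3. The other 3 genes were not called among these organs. Pollen markers (3 of 4 measured) averaged 5.24 to 6.74 on stamen arrays and 1.27 to 1.31 on sepal arrays. AT1G04560, called in stamens, was high on 1 of the 3 stamen arrays.

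**Figure D2:**
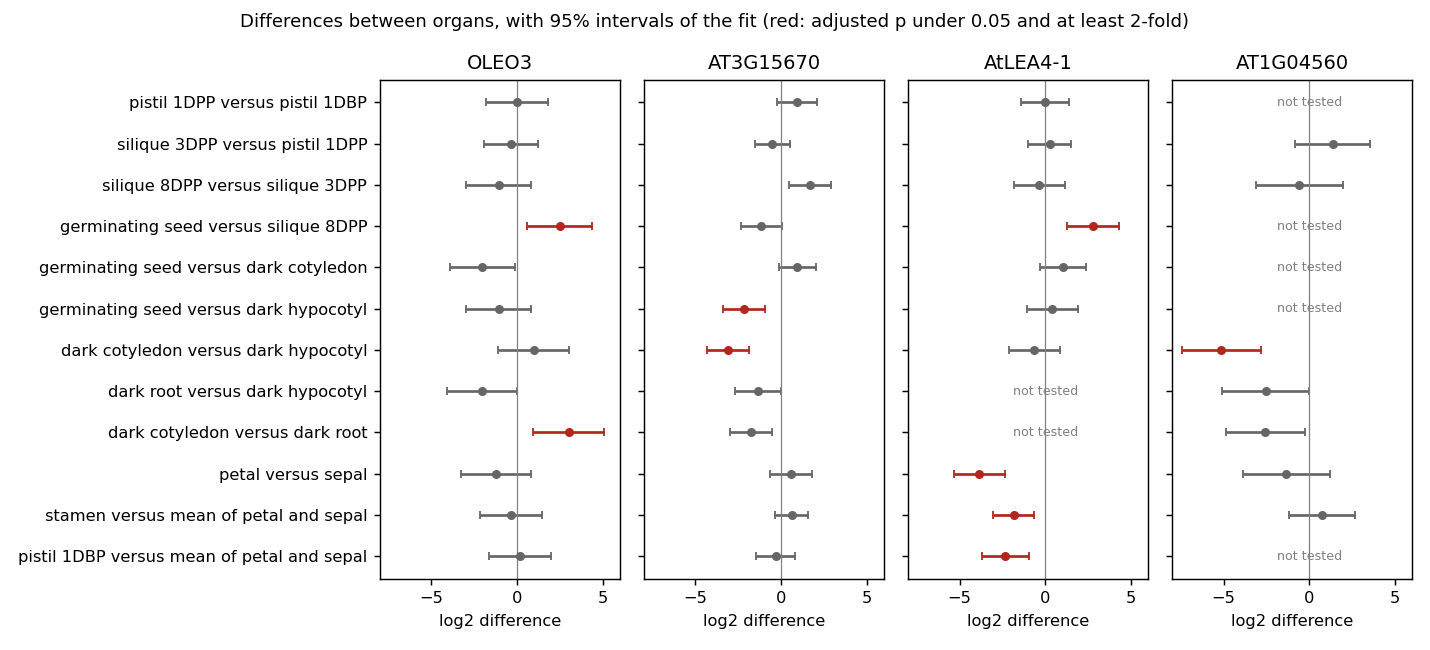
Log2 difference between 2 organs (horizontal axis) for each gene, with the 95% interval of the fit; rows are comparisons, the first-named organ over the second, and red marks an adjusted p under 0.05 with at least a 2-fold change. The longest shift is AT1G04560 in dark cotyledons against dark hypocotyls at -5.14, and no gene is red along the pistil and silique stages.

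In cotyledons OLEO3 was lower in light than in dark: the direct arrays read -3.65 and -5.23 (mean -4.44 ± 0.71 SE, 21.7-fold, adjusted p = 4e-05). It was 1 of 3 tested genes, beside 11.4% of all probes called in either direction on these arrays. Through cultured cells, where light cotyledons read 1.84 and 1.58 and dark ones 4.70 and 4.53, the difference was -2.91 ± 1.01 (SE, adjusted p = 0.0747), so that 0 of 4 genes were called by that route, beside 8.08% of probes. Its unadjusted limma p was 0.00751, and that of AT1G04560 0.0158. Both routes had the light organ lower on every array. AtLEA4-1 read -1.11 and -0.99 on the direct arrays (adjusted p = 0.259) and 0.07 through cultured cells. AT3G15670 was near 0 on the direct arrays, at -0.16 and 0.60, and 0.99 through cultured cells (adjusted p = 0.414). AT1G04560 read differently by the 2 routes, a difference that was not tested: all light cotyledon arrays lay above all dark ones, by 2.91 ± 1.12 (SE, adjusted p = 0.125), while its only direct value was -0.74.

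In roots, AT1G04560 and AtLEA4-1 were lower in light. On the direct arrays AT1G04560 read -2.89 and -4.52 (mean -3.70 ± 0.87 SE, 13.0-fold, adjusted p = 0.0054) and AtLEA4-1 -0.95 and -3.48 (mean -2.22 ± 0.57 SE, 4.65-fold, adjusted p = 0.00839). These 2 of 4 genes stood beside 9.12% of all probes called in either direction. Both calls were lost without direct root replicate 2 (AT1G04560 -2.89, adjusted p = 0.378, and AtLEA4-1 -0.95, adjusted p = 0.868). Through cultured cells AT1G04560 fell to 0.97 and -2.08 in light roots, against 3.98 and 3.04 in dark roots, a difference of -4.06 ± 1.23 (SE, adjusted p = 0.0466) and 1 of 3 tested genes beside 6.21% of probes. The lower of the light root values came from the array with the organ in channel 1, without which the difference was -2.54 (adjusted p = 0.62), and both light root arrays carry the number 1, so that their RNA may not be separate. The call was also lost without either dark root array (adjusted p of 0.182 and 0.161) and with arrays left uncentred (-4.41, adjusted p = 0.0702). AtLEA4-1 read -0.58 and -0.95 in light roots, against a single dark root value of 3.53, and was not tested by this route. OLEO3 and AT3G15670 were not called in roots by either route, with direct values of 0.44 and -1.15 for OLEO3 and -0.42 and -0.74 for AT3G15670.

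**Figure D3:**
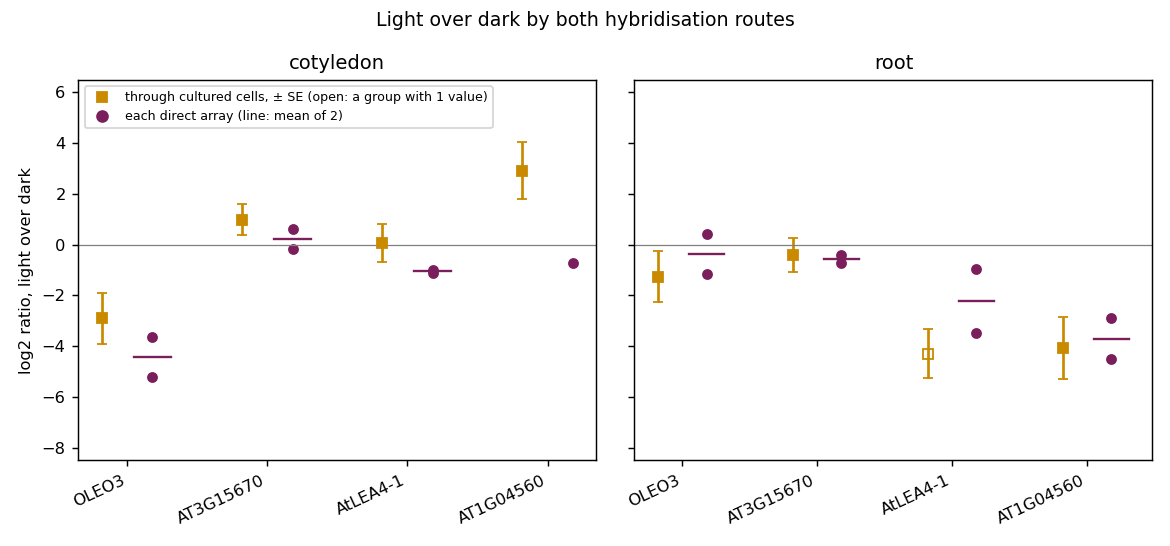
Log2 ratio of light over dark (vertical axis) for each gene in cotyledons and roots; squares are differences through cultured cells with their SE, open where a group has 1 value, and circles are the direct arrays with the mean as a line. OLEO3 is low in light cotyledons at -2.91 and -4.44, and AT1G04560 is low in light roots at -4.06 and -3.70.

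The organs' light responses differed by a test of the difference itself for OLEO3 and AT1G04560. On the direct arrays the OLEO3 response in cotyledons minus that in roots was -4.09 ± 1.01 (SE, adjusted p = 0.0116), 1 of 3 tested genes beside 6.12% of probes, in a comparison added after its values had been seen. It missed the threshold without direct cotyledon replicate 2 (-3.30, adjusted p = 0.174) and without direct root replicate 1 (-3.29, adjusted p = 0.119). Through cultured cells the same difference for OLEO3 was -1.65 (95% interval -4.58 to 1.27). For AT1G04560 the response through cultured cells in cotyledons minus that in roots was 6.97 ± 1.66 (SE, adjusted p = 0.0112), 1 of 3 tested genes beside 6.38% of probes. Without light cotyledon replicate 2 it was 5.97 (adjusted p = 0.0846) and without the channel 1 light root array 5.44 (adjusted p = 0.118).

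In hypocotyls the direct arrays, with the light RNA in channel 2 and not channel 1 as in cotyledons and roots, have no settled direction. Over all probes their mean correlated at -0.09 with the light minus dark difference through cultured cells, against 0.54 for cotyledons and 0.49 for roots. The size of the OLEO3 ratio was 4.30-fold (values of 2.47 and 1.73 as deposited and centred, adjusted p = 0.0332), 1 of 4 genes beside 16.7% of probes, and it was not called when arrays were left uncentred (adjusted p = 0.105) or without either array. The 3 other genes had direct values between -0.56 and 0.90. Through cultured cells each gene had at most 1 light hypocotyl value, and not all from the same array. OLEO3 (3.27) and AT1G04560 (6.13) lay within the range of the dark hypocotyls, while AT3G15670 read 0.04 in light, against 2.58 and 2.10 in the dark.

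The 4 genes did not share a single profile. Over groups with at least 2 arrays, the group means of AT1G04560 correlated with those of AtLEA4-1 at r = 0.56 (13 groups), with OLEO3 at 0.50 (14) and with AT3G15670 at 0.48 (14). OLEO3 and AtLEA4-1 correlated at 0.47 (15 groups). AT3G15670 had r near 0 with AtLEA4-1 (-0.07, 15 groups) and OLEO3 (-0.03, 16 groups). All of these share the cultured cell RNA and are descriptions of the groups measured. Among 1739 named probes with enough groups, the genes most like AT1G04560 were LEA (AT2G21490), a dehydrin, at r = 0.88 over 13 groups and the LEA gene AT3G17520 at 0.87 over 14. After them came AT1G54870 (0.83), CP5 (0.83) and HSP93-III (0.78), which encodes a chloroplast chaperone. The closest to OLEO3 were AT1G28660 (0.72), AT1G48650 (0.71), AT5G14260 (0.71), CIL (0.70) and AT1G64385 (0.70). AT3G15670 was most like AT5G48290 (0.80), AT3G02555 (0.76), AT1G27030 (0.73), AT5G19890 (0.71) and AT5G44010 (0.70). AtLEA4-1 was most like AT5G28920 (0.81), AT2G31290 (0.79), AT5G01960 (0.79), AT2G30700 (0.78) and AT5G19290 (0.78).

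Other LEA genes were also high in seedling organs, dark or light, except light roots, and in sepals, stamens and germinating seeds. Of 36 listed LEA genes, 8 had a named probe, and 6 of these are not among the 4 genes: LEA, AT3G17520, LEA18, LEA4-5, the dehydrin gene COR47 and AT3G22490. In dark hypocotyls 4 of 5 tested were called higher than in cultured cells, with AT3G17520 at 4.08, LEA at 3.62 and COR47 and LEA4-5 at 2.37 and 2.36, and the list's median was 2.37, beside -0.02 over all probes. In dark roots 5 of 6 were called higher, led by AT3G17520 at 3.16, and in light cotyledons and sepals 4 of 6 each. Dark cotyledons and stamens had 3 of 6 each, and light hypocotyls 5 of 5. The light hypocotyl count rests on 2 arrays that correlated at 0.63, where 14978 probes could be tested and none of the 4 genes. In germinating seeds 5 of 6 were higher, led by LEA18 at 3.71, and COR47 was lower, at -2.41. The share of all probes called higher was 19.6% in dark hypocotyls, 13.2% in dark roots, 17.7% in light cotyledons, 22% in sepals, 20.1% in dark cotyledons, 23.5% in stamens, 20.5% in light hypocotyls and 29.3% in germinating seeds, where 29.4% were called lower. The list's median was 2.91 in light cotyledons, beside 0.01 over all probes, and 1.66 in germinating seeds, beside 0.12. Light roots, petals, leaves, stems, pistils and siliques had at most 1 called higher. In 8DPP siliques 1 of 5 tested was called, beside 18.8% of all probes. The list's median there was nonetheless 1.28, beside 0.07 over all probes, and it was 1.12 in dark cotyledons. Calls of lower level were COR47 (-2.81) and LEA4-5 (-1.30) in 1DBP pistils, 2 of 5 tested beside 18.9% of all probes, and COR47 (-1.31) in 1DPP pistils, 1 of 6 beside 20.1%. In dark cotyledons against dark hypocotyls, AT3G17520 (-4.31) and LEA (-2.93) were lower, 2 of 5 tested beside 5.79% of all probes called lower. AT3G15670 and AT1G04560 were lower in the same comparison.

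**Figure D4:**
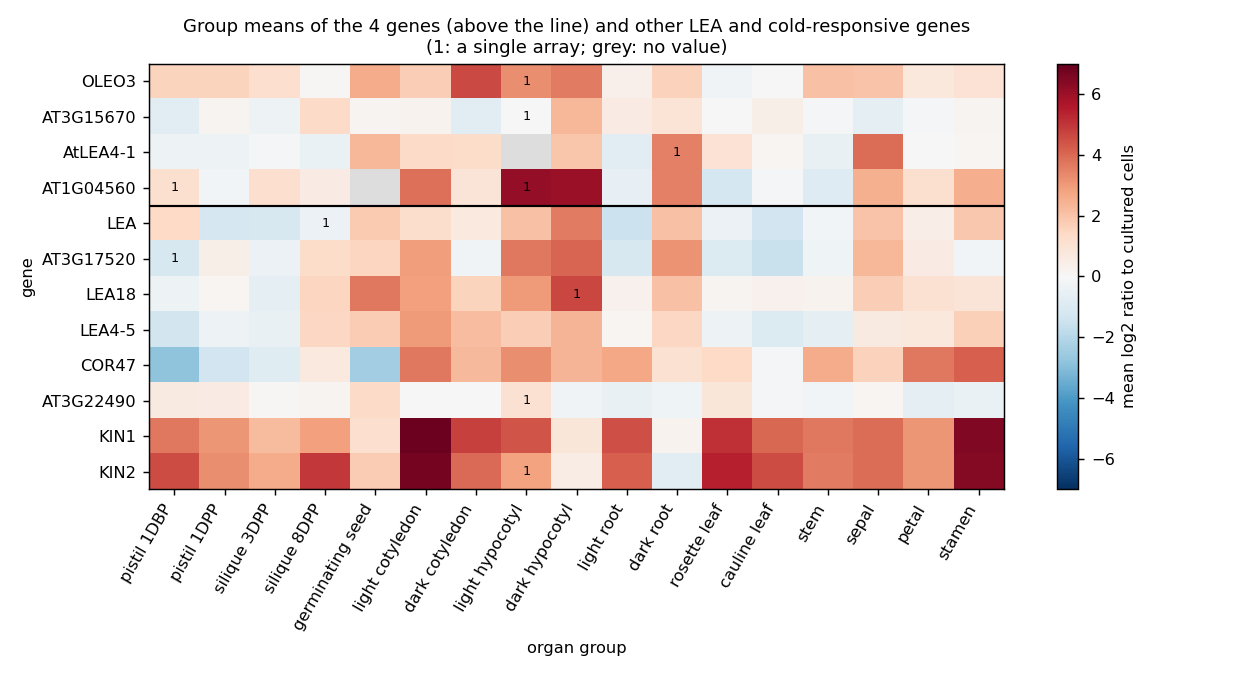
Mean log2 ratio to cultured cells (colour) of the 4 genes, above the line, and of 6 other LEA genes with KIN1 and KIN2, below it, in each organ group (horizontal axis); 1 marks a single array and grey no value. Dark hypocotyls hold high values of AT1G04560 (6.06), AT3G17520 (4.08), OLEO3 (3.65) and LEA (3.62), and 8DPP siliques at most 1.33 for the 4 genes.

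LEA genes also differed between silique stages and between light and dark roots. In 8DPP against 3DPP siliques 2 of 5 tested LEA genes were called higher, LEA4-5 by 1.96 and COR47 by 1.56, beside 7.92% of all probes called higher. In light against dark roots, through cultured cells, AT3G17520 was lower by a difference of -4.29 and LEA by -3.55, while COR47 was higher by 1.64. Of 6 tested, 2 were thus called lower and 1 higher, beside 1.08% and 5.14% of all probes. On the direct root arrays LEA18 was lower at -1.93 and COR47 higher at 2.09, and AT3G17520 read -1.23 (adjusted p = 0.334). Of 5 tested there, 1 was called lower and 1 higher, beside 4.31% and 4.81% of all probes. KIN1 and KIN2, small cold- and abscisic acid-inducible proteins whose near-identical sequences may cross-hybridise, were higher in light roots on the direct arrays, by 4.24 and 4.81. They are among 4 of 17 listed abscisic acid and dehydration responsive genes with a probe. Of these 4, 2 were called higher and 0 lower there, beside 4.81% and 4.31% of all probes. KIN1 and KIN2 were thus higher in light roots, where AT1G04560 and AtLEA4-1 were lower.

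The other lists could hardly be measured. OLEO3 was the only 1 of 11 listed oil body genes with a named probe. Of 13 seed storage protein genes and 8 seed maturation regulators, 0 had one. The seed coat and ovule markers INO and BAN had means of -0.59 and -0.55 in germinating seeds. Of 18 genes of oil breakdown and fatty acid beta-oxidation, AIM1 had a probe. It was lower than in cultured cells in germinating seeds, at -1.85 ± 0.20 (SE, adjusted p = 6.52e-10).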

How the data were processed

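The authors deposited a log2 ratio per probe and array. Their scanning, background correction and normalization are not given in the sources used here. Groups were taken from the labels. Each of the 51 arrays was centred on its median, control spots were averaged, and 27600 features were fitted in R 4.3.3 with limma 3.58.1 (1 mean per group over all arrays, moderated variance). Tests were two-sided, with Benjamini-Hochberg adjustment over all probes that had at least 2 values in every group compared. Adjusted p-values printed in the text are from that fit, except where another setting or a left-out array is named beside them. The script was tested on simulated data. Gene names came from the probe annotation, leaving out 644 probes with several symbols, 135 genomic-clone probes and 19 probes at odds with others sharing their accession. RefSeq's TAIR10.1 table was used for names alone. The 4 genes are given in every comparison whatever their result. Of the listed genes the largest called changes are named, and likeness covers the 5 named genes with the highest correlation over at least 12 groups. The genes and gene lists were chosen with earlier results of these data known. Signal over background was not analysed here, and the number of arrays limits the precision. Alternatives tried were other centring and scaling, filters, a robust fit, a replicate block, arrays compared alone and leaving out each array. Where a group had 2 values for a gene, leaving out 1 array left a single value, whose p rests on the spread within other groups. The comparison of direct light responses between organs was added after its values had been seen.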

Additional observations from a re-analysis of the deposited data

Results flagged for a closer look

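For AT1G04560, the light response through cultured cells differed between organs by the test of the difference itself, which was 6.97 ± 1.66 for cotyledons minus roots (SE, adjusted p = 0.0112): 2.91 in cotyledons and -4.06 in roots. On the direct arrays the cotyledon value was a single -0.74 and the root mean -3.70, a difference of 2.97 that could not be tested. For OLEO3, the direct light response in cotyledons minus that in roots was of the opposite sign, at -4.09 ± 1.01 (SE, adjusted p = 0.0116), with -4.44 in cotyledons and -0.36 in roots. That comparison was added after its values had been seen. With the arrays of a comparison fitted alone, neither difference was called (limma adjusted p of 0.0929 for AT1G04560 and 0.104 for OLEO3). Among the 1DPP pistils, the only group of 4, no array stood apart from the others for any of the 4 genes by Dixon's test.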

How the results depend on the processing

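Across all alternatives, 1587 recomputed values of single genes kept their direction and side of the threshold, 38 came past it, 59 no longer passed it and 1 reversed. The reversal was OLEO3 in cauline leaves without replicate 1, at -1.49; leaving out single arrays gave -1.49 to 0.87. The median of all probes in germinating seeds was 1.12 without centring, against 0.12 with it. Counts of called genes changed as follows, and except where a gene could not be tested the cause was not tested. Over all groups against cultured cells, the count of 17 became 23 without centring, 21 with centring on probes with 1 gene name, 20 with no filter, 15 with a value required on every array and 24 with a replicate block, and ran from 16 to 18 on leaving out single arrays. Without centring, OLEO3 and AT3G15670 in dark roots (adjusted p of 0.015 and 0.0147), OLEO3 and AtLEA4-1 in light cotyledons (0.0175 and 0.0287), AT3G15670 in germinating seeds (0.0095) and OLEO3 in 1DBP pistils (0.0382) came past the threshold. The block brought OLEO3 past it in dark roots (0.0222), light cotyledons (0.0132), 1DBP pistils (0.00874), 3DPP siliques (0.013) and stamens (0.0324), and AtLEA4-1 in light cotyledons (0.0125) and rosette leaves (0.0123). Without centring, counts became 0 for the direct hypocotyl arrays and for light against dark roots, 1 for germinating seeds against dark cotyledons and for 8DPP against 3DPP siliques, and 2 for germinating seeds against the flower. Under scaling to a common spread they became 0 for dark cotyledons against dark roots, for germinating seeds against the flower and for stamens against petals and sepals, 1 for germinating seeds against 8DPP siliques and against dark cotyledons, and 2 for the direct cotyledon arrays. Centring on probes with 1 gene name gave 2 for dark cotyledons against dark roots and 1 for 8DPP against 3DPP siliques. Requiring a value on every array gave 0 for germinating seeds against 8DPP siliques and for 8DPP siliques against the flower. There none of the 4 genes had values on all 3 8DPP silique arrays, so none could be tested. Against cultured cells the same filter left OLEO3 in dark cotyledons and AT3G15670 in 8DPP siliques untested, each with values on 2 of 3 arrays. With no filter on values per group, so that single arrays entered, the counts were 1 for light against dark hypocotyls and for cotyledon minus hypocotyl, and 2 for light against dark roots and for cotyledon minus root. With the arrays of a comparison fitted alone, which leaves few degrees of freedom, they were 0 for light against dark roots, cotyledon minus root by either route, petals against sepals, and stamens and 1DBP pistils each against petals and sepals, and 1 for light against dark cotyledons and for germinating seeds against dark cotyledons. Arrays with the same number did not deviate together (29 pairs, r from -0.07 to 0.08), and a replicate block gave 1 for germinating seeds against dark cotyledons and 2 for light against dark cotyledons. On leaving out single arrays the counts ran from 0 to 1 for 8DPP against 3DPP siliques, dark cotyledons against dark roots, germinating seeds against dark hypocotyls and the flower, stamens and 1DBP pistils against petals and sepals, petals against sepals, light against dark roots and cotyledon minus root by either route. They ran from 1 to 2 for germinating seeds against 8DPP siliques, from 0 to 2 for the direct root arrays and for 8DPP siliques against the flower, and were 0 for the direct hypocotyl arrays. Having 1 probe per gene, the alternative of probes taken apart did not arise, and no value of the 4 genes was at the ratio floor.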
